A study of Gallus gallus with 3 samples.

Results

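Trunk neural crest cells (tNCC) of the chicken embryo were profiled on an array titled HH16 and an array titled HH19, names that refer to Hamburger-Hamilton stages, and these 2 of the 3 Affymetrix chicken genome arrays used are compared here. Every named gene with a signal at or above a floor on at least 1 of these arrays entered the comparison, which was 10681 of 13009 named genes. Both arrays carry total RNA of White Leghorn embryos. According to the study, trunk explants were freed of neural tube, notochord and ectoderm. Cells bearing the HNK1 surface carbohydrate were then taken with magnetic beads, and each preparation pooled many embryos. The stage labels of the arrays conflict. The array titled HH16 carries HH19 in its age field, the array titled HH19 carries HH16 there, and the free text of both names HH16. The arrays are therefore called the HH16-titled array and the HH19-titled array after their titles, and which of them holds the older cells is not settled by the labels. The study describes 3 biological replicates per stage, and the sources used here do not say whether an array holds 1 replicate, pooled RNA or averaged values. With 1 array a side, no difference has a replicate check and no p-value was computed. The array titled HH9 carries cranial crest according to the methods, although its source name says trunk. Its signals entered the signal percentiles, the floor among them, and the choice of probe set for each gene. Otherwise they serve only to place the genes that differ.

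Neural crest cells leave the dorsal neural tube, migrate through the somites and beneath the ectoderm, and give rise to sensory and autonomic neurons, glia and pigment cells. While they migrate they share a set of transcription factors, of which SOX10 and FOXD3 are the best known, and they travel over laminin, fibronectin and collagen. When they gather into ganglia, proneural factors of the basic helix-loop-helix family and homeobox factors such as ISL1 start neuronal genes, whereas cells that enter the path under the ectoderm begin to express endothelin receptors and pigment genes. Retinoic acid, made in the somites, and bone morphogenetic proteins (BMPs), made in the roof of the neural tube and around the aorta, act on the crest and on the neural tube beside it.

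Both arrays were scaled to the same mean, with 61.0 and 60.2% of probe sets at or above the floor. Their floored log2 signals had a Pearson's r of 0.97 across the probe sets that reached the floor on at least 1 of them. Probe sets are not independent replicates. The ratio of the 3′ to the 5′ control probe sets was 0.93 and 0.79 for actin and near 1 on both arrays for GAPDH. Signals are given throughout with the HH16-titled array first and the HH19-titled array second, in units of the MAS5 algorithm, which scales each array to a common mean. The floor was a signal of 99.8, the 40th percentile of all signals. Where only 1 of the 2 signals reached the floor, the fold is a lower bound and carries the words "at least". A fold is the higher signal over the lower, and a log2 ratio above 0 means a higher signal on the HH16-titled array. The genes that define tNCC were checked first. SOX10, the crest and glial factor, read 15746 and 17338 (1.1-fold). FOXD3, a forkhead factor of early and migrating crest, read 6650.2 and 6018 (1.11-fold). TFAP2B, a crest and sympathetic factor, read 5208 and 5712 (1.1-fold). All 3 were among the bright genes of both arrays. B3GAT1, which makes the HNK1 epitope, was much dimmer at 308 and 269.6 (1.14-fold).

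Most genes had much the same signal on both arrays, and the lists richest in 2-fold members were pigment, neurogenic and neuronal cytoskeleton genes on the HH16-titled side and neural tube progenitor, SOX family, epithelial and retinoic acid genes on the HH19-titled side. Of 13 SOX genes with a ratio, 4 (30.8%) were at 2-fold on the HH19-titled side and 1 on the HH16-titled side. The family as a whole did not lean to the HH19-titled side, with 7 ratios above 0 and a median log2 ratio of 0.12. Of the 10681 genes, 96.5% lay within 2-fold and 87.1% within 1.5-fold, and the median absolute log2 ratio was 0.22. At least 2-fold higher on the HH16-titled array were 206 genes (1.93%), and at least 2-fold higher on the HH19-titled array were 164 (1.54%). Of these folds, 46 and 46 are lower bounds. At 3-fold the counts were 49 and 48, at 4-fold 20 and 18, and at 8-fold 4 and 1. Counted by probe set, 2.22% of 25017 were higher by at least 2-fold on the HH16-titled array and 1.3% on the HH19-titled array. The spread of the ratios depended on signal. Genes at or above the floor on both arrays were split into 5 equal classes by signal, which leaves out genes with a lower bound. In the next to dimmest class 5.18% differed by 2-fold, and in the brightest 1.03%. Around the threshold the genes are dense. CTSC, a lysosomal protease, read 2206 and 1103 and stood just inside it. MET, the receptor of hepatocyte growth factor, read 342 and 171 and stood just outside it.

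**Figure D1:**
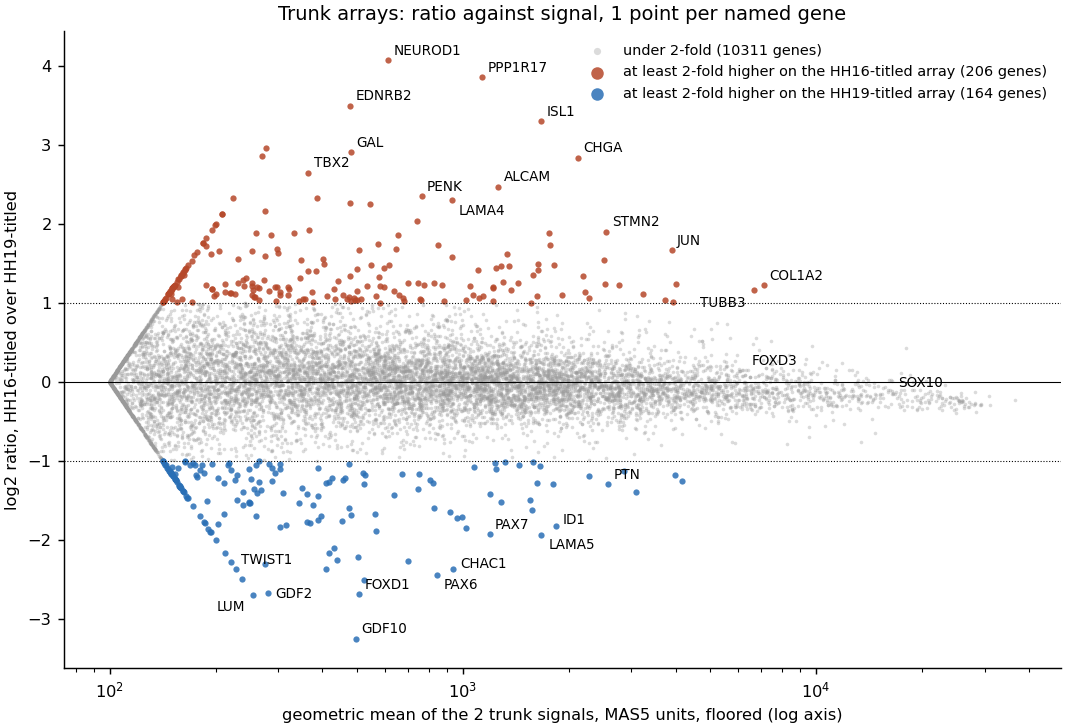
Log2 ratio of the HH16-titled over the HH19-titled array (vertical axis) against the geometric mean of the floored signals (horizontal log axis), 1 point per named gene, with 1 array a side and no error bars. The 206 genes above the upper dotted line and the 164 below the lower one differ by at least 2-fold, the slanted edges at the left hold genes with 1 signal at the floor, and SOX10 and FOXD3 lie near 0.

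Neurogenic transcription factors were mostly higher on the HH16-titled array, and none of the list was 2-fold higher on the HH19-titled array. Of 23 factors with a ratio, 7 (30.4%) were higher by at least 2-fold on the HH16-titled array, beside 1.93% of all genes, and 19 had a ratio above 0. Their median log2 ratio was 0.59, beside -0.02 over all genes. NEUROD1, which carries neuroblasts into differentiation, read 2508 and 149.6 (16.8-fold). NEUROD4, its relative, read 435 and 45.6 (at least 4.36-fold). On the HH19-titled array these probe sets lay near or under the floor, and a brighter NEUROD1 probe set that the annotation leaves unnamed gave a higher signal there. MYT1, a zinc finger factor of neuronal precursors, read 582 and 131 (4.46-fold). The neurogenins, which act before NEUROD1, were unequal. NEUROG1 read 544 and 151 (3.61-fold). NEUROG2, which acts in the earliest sensory precursors, read 228 and 202 (1.13-fold) and so differed by far less. EBF1, which follows the proneural factors, read 981 and 363 (2.7-fold), and EBF2 and EBF3 had log2 ratios of 0.59 and 0.52. Of SOX4 and SOX11, related factors of young neurons, SOX4 read 2925 and 1875 (1.56-fold) and SOX11 3503 and 3232 (1.08-fold), neither at 2-fold. Probe sets of NHLH1, a late helix-loop-helix factor, ran in opposite directions. The brightest read 1101 and 611 (1.8-fold) and another 127 and 272 (2.15-fold).

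Sensory and autonomic factors differed by member. Of 14 sensory factors with a ratio, 2 (14.3%) were higher by at least 2-fold on the HH16-titled array, beside 1.93% of all genes. Of the 14, 7 had a ratio below 0, and the median log2 ratio was -0.0026. The median depended on the floor, since a floor at the 20th percentile gave 0.49 and a floor at the 60th 0.54. ISL1, the LIM homeobox factor that sensory and sympathetic neurons share, read 5215 and 530.4 (9.83-fold). EYA2, a transcriptional co-activator, read 1078 and 452 (2.38-fold). These were the 2 sensory factors at 2-fold. RUNX1, a factor of nociceptive neurons, read 240.3 and 241 (1.0-fold). Of 14 autonomic genes with a ratio, 3 (21.4%) were 2-fold higher on the HH16-titled array and all of these folds are lower bounds. HAND2, a helix-loop-helix factor of sympathetic precursors, read 396 and 79.5 (at least 3.97-fold). TH, the rate-limiting enzyme of catecholamine synthesis, read 353 and 21.9 (at least 3.54-fold). CHRNA3, the nicotinic receptor subunit of autonomic ganglia, read 247 and 76.8 (at least 2.47-fold). Other catecholamine genes did not reach 2-fold. DDC, the next enzyme, read 233 and 161 (1.45-fold), and GCH1, which makes the cofactor of TH, 344 and 264 (1.3-fold). DBH, which makes noradrenaline, lay under the floor on both arrays. GATA2 and GATA3, zinc finger factors of sympathetic neurons, had log2 ratios of 0.31 and -0.43.

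Of 228 probe sets at 2-fold with no gene in the platform annotation, 35 have a symbol in the study's own gene table, 11 of them higher on the HH16-titled array and 24 on the HH19-titled array. The 3 described here carry symbols of the neuronal lists and were all higher on the HH16-titled array. A probe set of TLX3, a homeobox factor of sensory neurons, read 1634 and 97.8 (at least 16.4-fold). Another NEUROD1 probe set read 13295 and 1128 (11.8-fold), which is brighter than the named one and runs the same way. Another probe set of KIF5C, a neuronal kinesin, read 1349.5 and 574 (2.35-fold).

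Genes of the neuronal cytoskeleton and neuronal RNA-binding proteins were higher on the HH16-titled array across most of the list. Of 37 with a ratio, 10 (27%) were higher by at least 2-fold on the HH16-titled array, beside 1.93% of all genes, none on the HH19-titled array, and 34 lay above 0, with a median log2 ratio of 0.65. STMN2, a stathmin of growth cones, read 4911 and 1319.6 (3.72-fold). STMN3, its relative, read 388 and 164 (2.37-fold). STMN1, the stathmin of dividing cells, was far brighter and ran the other way at 23947 and 28134 (1.17-fold). Among tubulins, TUBB3, the neuronal beta-tubulin, read 9983 and 4477 (2.23-fold). TUBB2A read 2123 and 771 (2.75-fold) and TUBB2B 11443 and 8327 (1.37-fold). The tubulins were bright on both arrays, so their ratios rest on signals far above the floor. The probe sets of TUBB3 and TUBB2A, however, carry a suffix of sets that may bind more than 1 transcript. Of the Hu proteins, which stabilise neuronal mRNAs, ELAVL4 read 2517 and 988 (2.55-fold) and ELAVL2 1248 and 345 (3.61-fold), although another ELAVL2 probe set read 122 and 153 (1.25-fold). The neurofilament genes NEFL, NEFM and NEFH had log2 ratios of 0.91, 0.65 and 1.21. MAP1A and MAP2, microtubule-associated proteins, were also higher on the HH16-titled array. MAP1A read 3012 and 1085 (2.78-fold) and MAP2 571 and 352 (1.62-fold). GAP43, the growth cone protein, was an exception with a dim probe set at 103 and 169.6.

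Secretory and peptide genes followed with fewer members. Of 31 genes of vesicle release and secretory granules, 3 (9.68%) were 2-fold higher on the HH16-titled array, beside 1.93% of all genes. Of the 31, 23 lay above 0, with a median log2 ratio of 0.26. CHGA, the chromogranin of dense-core granules, read 5639 and 792 (7.12-fold), and SCG3, a granule sorting protein, 902 and 394 (2.29-fold). SNAP25, which drives vesicle fusion, read 499 and 95.3 (at least 5.0-fold). Not all release genes differed by as much. SYP, a vesicle membrane protein, read 1711 and 1698 (1.01-fold), and STX1A, the partner of SNAP25, 760.2 and 581 (1.31-fold). Of 15 neuropeptide genes, 3 (20%) were 2-fold higher on the HH16-titled array and none on the other. GAL, the galanin precursor, read 1318 and 176 (7.47-fold), and PENK, the enkephalin precursor, 1724 and 338 (5.1-fold). TAC1, the precursor of substance P, ran the other way at 359 and 484 (1.35-fold), and NPY lay under the floor on both arrays. NELL2, a secreted protein of differentiating crest-derived neurons, was bright on both arrays at 7781 and 6455 (1.21-fold).

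Many channel and receptor genes lay under the floor. Of 36 voltage-gated channel genes with a ratio, 2 (5.56%) were 2-fold higher on the HH16-titled array, beside 1.93% of all genes, and 29 more lay under the floor on both arrays. KCNMA1, a calcium-activated potassium channel, read 365 and 158 (2.31-fold), and its 3 probe sets with a ratio had log2 ratios from 1.21 to 1.66. CACNG4, a calcium channel and AMPA receptor subunit, read 468 and 218 (2.14-fold). Of 51 transmitter receptor genes, 4 (7.84%) were 2-fold higher on the HH16-titled array and 1 on the HH19-titled array. The first included ADRA2A, an adrenergic receptor, at 371 and 176 (2.1-fold). The second was CHRNA1, the muscle nicotinic subunit, at 115 and 232 (2.02-fold). Probe sets disagreed in direction for CHRNA1 and for GRM7 and GLRA4, which encode glutamate and glycine receptor subunits.

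Growth factor receptors of neurons mostly had ratios above 0. Of 12 genes of neurotrophin and GDNF signalling with a ratio, 9 lay above 0, and the median log2 ratio was 0.50. Only GFRA1, a co-receptor of GDNF, passed 2-fold at 2239 and 810.3 (2.76-fold). That is 8.33% of the list, beside 1.93% of all genes on the HH16-titled side. The other receptors differed by less. RET, the kinase that GFRA1 serves, read 313 and 250.1 (1.25-fold). NTRK3, the receptor of neurotrophin-3, read 326 and 234 (1.39-fold), and NGFR, the receptor all neurotrophins bind, 453 and 289 (1.57-fold). GFRA3, another co-receptor, ran the other way at 199 and 319 (1.61-fold). LIFR, a cytokine receptor, was among the brightest at 6791 and 4058 (1.67-fold). BDNF, GDNF and NTRK2 lay under the floor on both arrays.

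**Figure D2:**
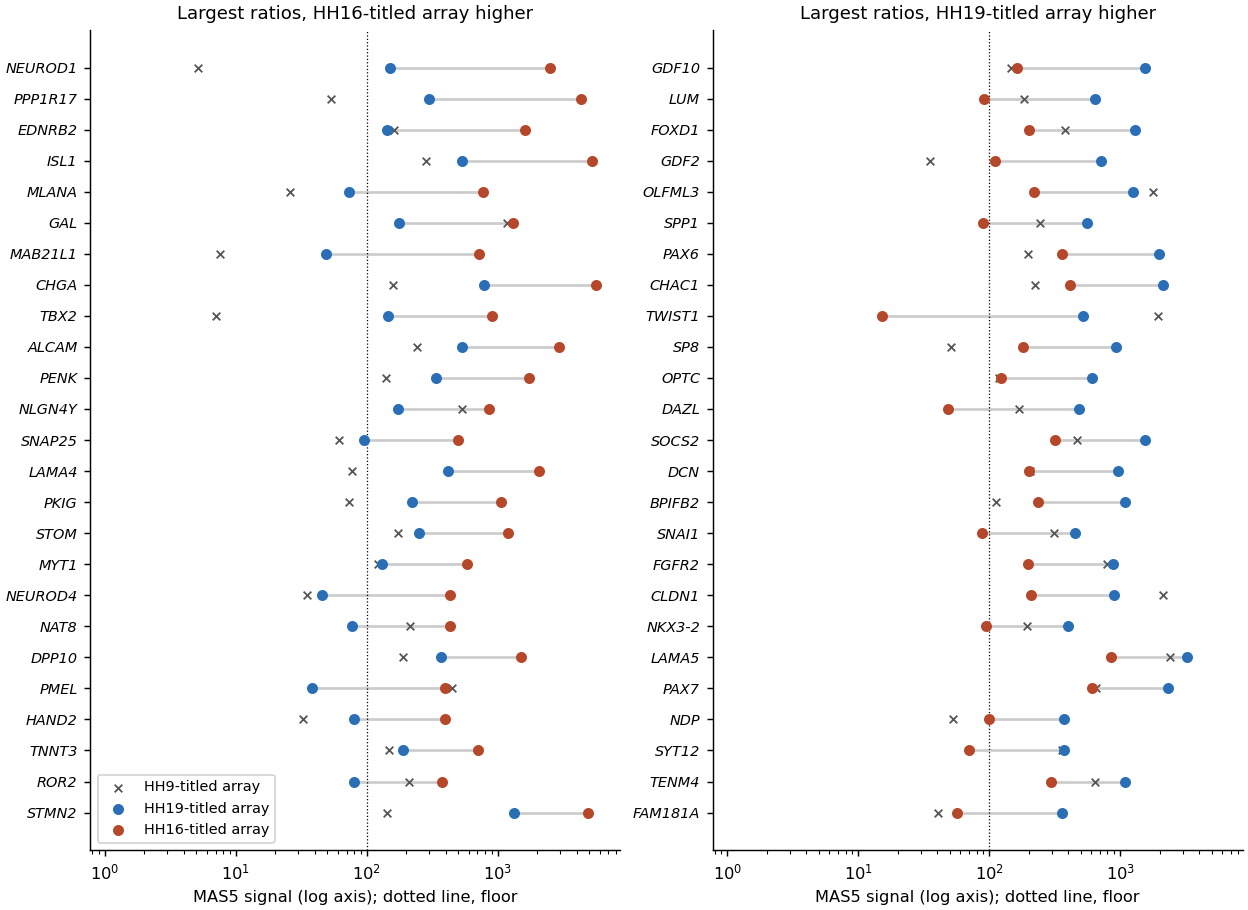
MAS5 signals (horizontal log axis) of the 25 genes furthest from a ratio of 0 on each side among those whose brighter trunk signal reached 235, with the HH16-titled array in red, the HH19-titled array in blue and the HH9-titled array as crosses. NEUROD1 heads the left panel with 2508 and 149.6, and GDF10 heads the right one with 162 and 1540.4.

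On the HH16-titled side, pigment genes held the highest share of 2-fold members among the lists with at least 10 genes with a ratio. Of 15 melanoblast genes, 5 (33.3%) were higher by at least 2-fold on the HH16-titled array, beside 1.93% of all genes, and the median log2 ratio was 0.52. EDNRB2, the endothelin receptor that avian melanoblasts use on the path under the ectoderm, read 1604 and 143 (11.2-fold), and its other probe set had a log2 ratio of 4.73. EDNRB, the receptor of migrating crest, was bright on both arrays at 7200.0 and 4325 (1.66-fold), and EDNRA read 472 and 292 (1.62-fold). The melanosome genes were measured on the HH16-titled array and lay under the floor on the other. MLANA, a melanosome membrane protein, read 773 and 72.6 (at least 7.74-fold). PMEL, which forms the fibrils of the melanosome, read 398 and 38.1 (at least 3.99-fold). OCA2, a melanosome transporter, read 231 and 75.7 (at least 2.31-fold). MITF, the master factor of the lineage, was measured on both arrays and differed by less, at 651 and 453 (1.44-fold). TRPM1, a channel gene under its control, read 311 and 64.6 (at least 3.11-fold). Of the melanin enzymes, DCT read 129.9 and 135 (1.04-fold), TYR lay under the floor on both arrays, and TYRP1 was just above it on the HH16-titled array. KIT, the receptor that melanoblasts need for survival, read 205 and 171 (1.2-fold).

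Glial genes showed no common direction. Of 20 Schwann and satellite glia genes, 2 (10%) were 2-fold higher on the HH16-titled array, beside 1.93% of all genes, and none on the other. The median log2 ratio was 0.0032, which turned to -0.05 with each array centred on its median. MBP, a myelin protein gene, read 1151 and 485 (2.38-fold), with its 3 probe sets between 1.25 and 1.34 on the log2 scale. CDH19, a cadherin of Schwann cell precursors, read 443 and 194 (2.29-fold). FABP7, a fatty acid binding protein of early glia and radial cells, read 8292 and 8267 (1.0-fold), and PMP22, a myelin membrane protein, 1079 and 944 (1.14-fold). CNP and GJB1, also myelin genes, had log2 ratios of -0.70 and -0.54.

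Factors of the neural crest itself lay on both sides, with 20 of 32 ratios below 0. Of 32 crest genes with a ratio, 8 (25%) were higher by at least 2-fold on the HH19-titled array, beside 1.54% of all genes, and 1 on the HH16-titled array. The median log2 ratio was -0.17. Most of the 8 are known from the dorsal neural tube or from mesenchyme. PAX7, a factor of the dorsal neural tube and early crest, read 609.7 and 2319.9 (3.8-fold), while its relative PAX3 read 1814 and 1691 (1.07-fold). MSX2, a BMP target of the same region, read 535 and 1935 (3.61-fold), while MSX1 read 1223 and 1217 (1.0-fold). Each of these pairs holds 1 gene at 2-fold and 1 that was level. ZIC1 and ZIC2, zinc finger genes of the dorsal neural tube, read 236 and 641 (2.72-fold) and 1154 and 2817 (2.44-fold). SNAI1 read 87.5 and 449 (at least 4.5-fold), whereas SNAI2, the snail factor of the avian crest, read 997 and 1206 (1.21-fold). TWIST1, a mesenchymal factor, read 15.2 and 516 (at least 5.17-fold). The SOXE genes went 3 ways. SOX9, which precedes SOX10 in the crest and makes cartilage, read 97.8 and 278 (at least 2.78-fold). SOX8 read 1330.4 and 569 (2.34-fold), and SOX10 was level as given above. MYC read 1143 and 2390.0 (2.09-fold) and MYCN 7457 and 8195 (1.1-fold).

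Progenitor genes of the neural tube were mostly higher on the HH19-titled array, and on that side they held the highest share of 2-fold members among the lists with at least 10 genes with a ratio. Of 22 with a ratio, 8 (36.4%) were higher by at least 2-fold on the HH19-titled array, beside 1.54% of all genes, and none on the other, and the median log2 ratio was -0.57. PAX6, a factor of spinal progenitors, read 362 and 1965 (5.43-fold), and SP8 180.1 and 927 (5.15-fold). OLIG2, which defines motor neuron progenitors, read 530.2 and 1752 (3.31-fold). The SOXB1 genes, which keep neural progenitors undifferentiated, were unequal. SOX1 read 147 and 424 (2.89-fold) and SOX3 920.5 and 2595 (2.82-fold), whereas SOX2 read 583 and 515 (1.13-fold). PTPRZ1, a receptor phosphatase of progenitors, read 753 and 2167 (2.88-fold), and its ligand PTN 1646 and 4038 (2.45-fold). Other genes of progenitors were level. NES, an intermediate filament of progenitors, read 10382 and 9704 (1.07-fold), VIM, another one, 12948 and 13508 (1.04-fold), and HES5, a Notch target, 257 and 258 (1.01-fold). The study's results section states that the neural tube was dissected away, whereas its methods for the trunk name only the removal of ectoderm and notochord. In bulk RNA fewer cells of a type and less RNA per cell cannot be told apart, and whether neural tube cells contributed to either array was not tested. The list's summed signals were 45315 and 54899, and of its 25 genes on the array 4 lay under the floor on the HH16-titled array and 3 on the HH19-titled array.

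Retinoic acid genes were higher by at least 2-fold on the HH19-titled array in 5 of 18 cases (27.8%), beside 1.54% of all genes, and in none on the HH16-titled array, with a median log2 ratio of -0.29. Enzymes that make and that destroy the ligand ran together. ALDH1A2, the main synthetic enzyme of the trunk, read 478 and 1442 (3.02-fold), and its other probe set with a ratio had a log2 ratio of -2.25. ALDH1A3 read 71.5 and 251 (at least 2.51-fold) and RDH10, which supplies their substrate, 451 and 1008 (2.24-fold). CYP26B1 and CYP26A1, which degrade the ligand, read 202 and 584 (2.89-fold) and 126 and 263 (2.08-fold). All 5 ratios thus came from enzymes of the ligand. DHRS3, a reductase induced by retinoic acid, read 2255 and 3706 (1.64-fold), and the receptor gene RARB 2701 and 3968 (1.47-fold). NR2F2, an orphan receptor, ran the other way at 6332 and 3997 (1.58-fold). Beside these, 11 markers of lateral and intermediate mesoderm, which also make ALDH1A2, had a median log2 ratio of -0.36 with ALDH1A2 among them. Their summed signals were 2475 and 3582, of which ALDH1A2 itself held 478 and 1442. ALDH1A2 was the 1 member (9.09%) at 2-fold on the HH19-titled side, beside 1.54% of all genes. HAND2 was the 1 member (9.09%) at 2-fold on the HH16-titled side, beside 1.93%. The part of mesoderm cells in the result was not tested.

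The BMP and transforming growth factor genes split by member around a median of -0.05. Of 49, 2 (4.08%) were 2-fold higher on the HH16-titled array and 3 (6.12%) on the HH19-titled array, beside 1.93% and 1.54% of all genes. Ligands lay on both sides. GDF10, which had the largest ratio on the HH19-titled side, read 162 and 1540.4 (9.53-fold), and GDF2, also known as BMP9, 111 and 709.8 (6.37-fold). INHBB, an activin subunit, read 340.2 and 103 (3.3-fold), and GDF3 443 and 206 (2.15-fold). ID1, a direct BMP target, read 972 and 3440.4 (3.54-fold), and ID2, another target, 7524 and 12165 (1.62-fold). ID3 and ID4 had log2 ratios of -0.48 and 0.12, so the ID genes did not move as one. The receptor BMPR1B read 225 and 391 (1.74-fold), and LTBP1, which tethers latent transforming growth factor to matrix, was bright at 4509 and 7723 (1.71-fold).

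WNT genes split in the same manner, with a median log2 ratio of -0.12 over 43 genes. At least 2-fold higher on the HH16-titled array were 2 (4.65%) and on the HH19-titled array 3 (6.98%), beside 1.93% and 1.54% of all genes. The ligands WNT4 and WNT6 read 168 and 591 (3.52-fold) and 149 and 324 (2.17-fold). The receptor genes went the other way. FZD4 read 3291 and 1502 (2.19-fold), with both probe sets above 2-fold, and ROR2, a co-receptor of non-canonical WNT signalling, read 378 and 79.2 (at least 3.78-fold). In the Notch pathway, where 23 genes had a median of -0.0092, the 2-fold members opposed each other. HEY1, a target, read 3889.6 and 1648 (2.36-fold), and LFNG, a modifier of Notch, 2651 and 5993 (2.26-fold). DLL1, the ligand of neuroblasts, read 3014 and 3619.7 (1.2-fold), and NOTCH1 2106 and 1481 (1.42-fold).

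Fibroblast growth factor genes leaned towards the HH16-titled array, with a median log2 ratio of 0.26 over 25 genes, but a receptor had the largest ratio and ran the other way. FGFR2 read 198 and 886 (4.47-fold), whereas FGFR3 read 5686 and 3964 (1.43-fold) and FGFR1 1895 and 2698 (1.42-fold). Feedback genes of the pathway lay under 2-fold, with DUSP6 at 1819 and 1067 (1.7-fold) and SPRY2 at 762 and 409 (1.86-fold). FGF13, an intracellular member of neurons, read 395 and 173 (2.29-fold). Among hedgehog genes, 13 of 16 had ratios below 0 and the median was -0.29. Only SCUBE2, which releases the ligand, passed 2-fold at 549 and 1797 (3.27-fold). That is 6.25% of the list, beside 1.54% of all genes on the HH19-titled side. The target genes PTCH1 and HHIP read 1879 and 2188 (1.16-fold) and 330.1 and 479 (1.45-fold). PDGFRB, a receptor of perivascular mesenchyme, read 118 and 376 (3.18-fold), and VEGFD, a ligand of lymphatic and endothelial receptors, read 3362 and 911 (3.69-fold).

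**Figure D3:**
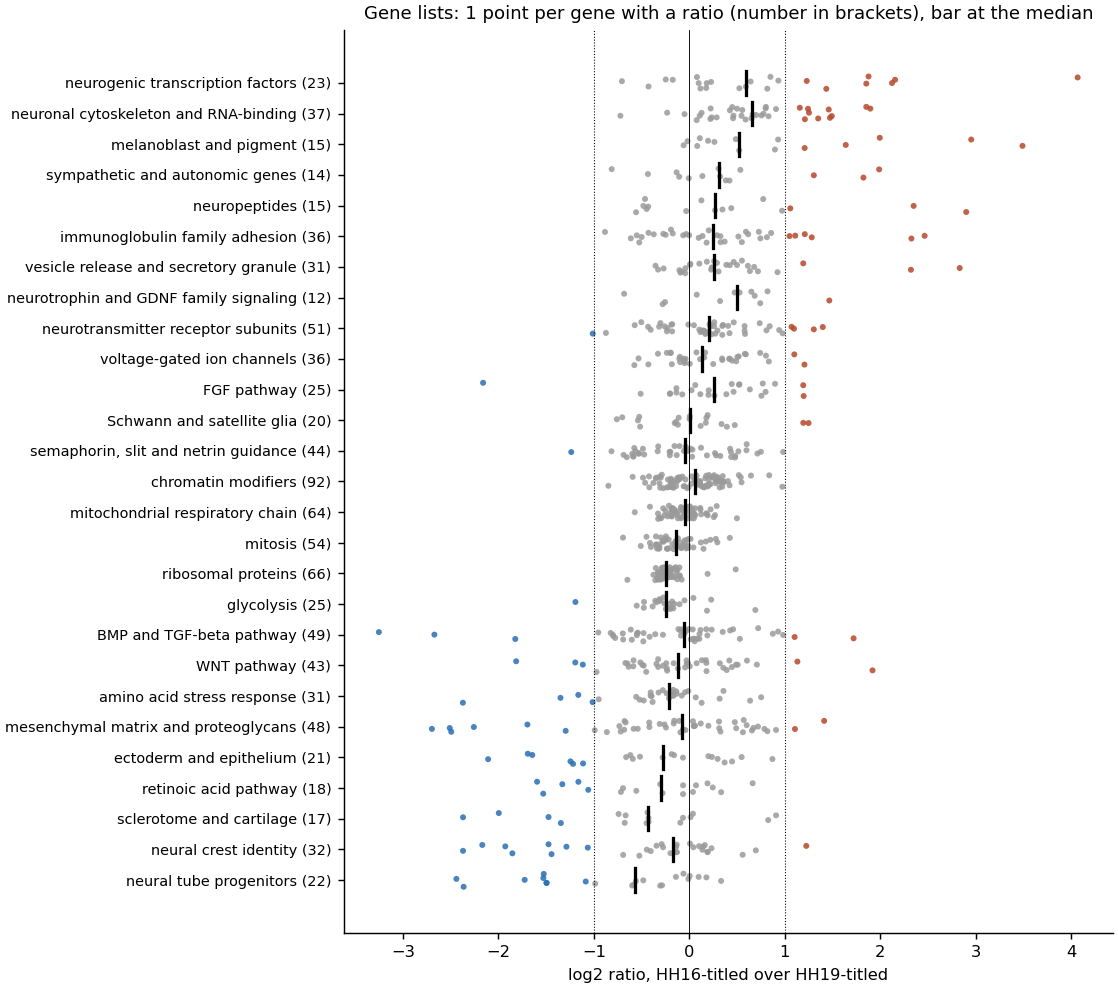
Log2 ratio of the HH16-titled over the HH19-titled array (horizontal axis) for each gene with a ratio in 27 lists, red where at least 2-fold higher on the HH16-titled array, blue where at least 2-fold higher on the HH19-titled array, with a black bar at the median. Neurogenic factors and neuronal cytoskeleton have no blue point, neural tube progenitors and retinoic acid genes have no red point, and the ribosomal protein genes form a narrow cluster below 0.

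Guidance genes had a share of 2-fold members near that of all genes. Of 44 genes of semaphorin, slit and netrin signalling only UNC5C, a netrin receptor, passed 2-fold at 298 and 703 (2.36-fold), which is 2.27% beside 1.54% of all genes on that side, and of 13 Eph receptors and ephrins none did by the brightest probe set, although another EPHB1 probe set had a log2 ratio of 1.07. The chemokine pair CXCR4 and CXCL12, which steers sympathetic precursors, was level on both, at 659.5 and 668 (1.01-fold) for the receptor and 624 and 654 (1.05-fold) for the ligand. Of 36 immunoglobulin family, neurexin and neuroligin genes, 6 (16.7%) were 2-fold higher on the HH16-titled array, beside 1.93% of all genes, and none on the other, with a median log2 ratio of 0.25. Without probe sets whose suffix marks that they may bind more than 1 transcript, the median was 0.10 over 28 genes. Of these 28, 14 lay above 0 and 14 below, with 5 at 2-fold on the HH16-titled side. ALCAM, an adhesion molecule of axons, read 2954 and 535 (5.52-fold), with its 3 probe sets that had a ratio between 2.00 and 2.65 on the log2 scale. NLGN4Y, a neuroligin, read 864 and 172 (5.02-fold), and NRXN3, a neurexin, 371 and 153 (2.43-fold). The probe set of NLGN4Y carries such a suffix. NCAM1, the neural adhesion molecule, ran the other way at 1150.1 and 1654 (1.44-fold).

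Cadherins lay on both sides. CDH19 and PCDH9 were 2-fold higher on the HH16-titled array (5.56% of 36 members, beside 1.93% of all genes). On the HH19-titled array 4 (11.1%) were 2-fold higher, beside 1.54% of all genes. CDH1, the epithelial cadherin, read 122 and 264 (2.16-fold), and CDH3 521 and 1631 (3.13-fold). CDH5, the cadherin of endothelium, read 86.0 and 346 (at least 3.46-fold). The crest cadherins CDH7 and CDH6 had log2 ratios of 0.23 and -0.29. Claudins also lay on both sides, with CLDN1, a claudin of epithelia, at 208 and 896 (4.31-fold) and CLDN11, the claudin of myelinating glia, at 292 and 129.6 (2.25-fold). Beside these, 6 of 21 markers of ectoderm and epithelium, which include CDH1, CDH3 and CLDN1 (28.6%), were 2-fold higher on the HH19-titled array, beside 1.54% of all genes, and none on the HH16-titled array, with a median log2 ratio of -0.28 and summed signals of 9424 and 11773. KRT7 and KRT24, keratin genes of simple and surface epithelia, read 279 and 648 (2.33-fold) and 144 and 465 (3.23-fold). TP63, a factor of surface ectoderm, ran the other way at 600.0 and 328 (1.83-fold). Whether ectodermal cells contributed was not tested.

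Matrix genes held opposite members of the same families. COL1A2 and COL1A1 encode the chains of one collagen. COL1A2 read 10879 and 4653 (2.34-fold) and COL1A1 247 and 839 (3.4-fold), in opposite directions. The probe set used for COL1A2, 1 of 8, carries a suffix of sets that may bind more than 1 transcript. COL1A1 rests on 1 probe set. Among laminin alpha chains, LAMA4, of vessels and peripheral nerve, read 2057 and 419.6 (4.9-fold). LAMA5, of epithelial basement membranes, read 852 and 3252 (3.82-fold). COL12A1, a fibril-associated collagen, read 496 and 135 (3.68-fold), with all 3 probe sets that had a ratio above 2-fold. The lists as wholes lay near 0, with medians of -0.05 for 34 collagen genes and 0.13 for 34 integrin and basement membrane genes. Of 48 genes of mesenchymal matrix, 6 (12.5%) were 2-fold higher on the HH19-titled array, beside 1.54% of all genes. On the HH16-titled array 2 (4.17%) were 2-fold higher, beside 1.93%. LUM and DCN, small proteoglycans of connective tissue, read 91.3 and 647 (at least 6.48-fold) and 202 and 964 (4.78-fold). OLFML3, a secreted olfactomedin protein, read 219.9 and 1252 (5.7-fold). POSTN, a matrix protein of periosteum and heart valves, read 219.8 and 712 (3.24-fold). These genes are typical of fibroblasts and mesenchyme. On the other side, SPON1, a floor plate protein that crest cells and axons respond to, read 1798 and 675 (2.66-fold). Metalloproteases were divided, with ADAM12 at 1158 and 362 (3.2-fold) and MMP2, a gelatinase of mesenchyme, at 351 and 797 (2.27-fold).

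Markers of sclerotome and cartilage ran in the direction of these matrix genes. Of 17 with a ratio, 4 (23.5%) were 2-fold higher on the HH19-titled array, beside 1.54% of all genes, and none on the HH16-titled array. The 4 were NKX3-2, FOXC2, SOX9 and TWIST1, and all of these folds are lower bounds. SOX9 and TWIST1 are also among the crest genes given above. Their median log2 ratio was -0.44, and of the 19 on the array 11 lay under the floor on the HH16-titled array against 3 on the HH19-titled array. The list's summed signals were 12841 and 16059, of which COL2A1, the cartilage collagen that notochord and sclerotome make, held 6513 and 8760.0. NKX3-2, a homeobox factor of sclerotome, read 94.4 and 398 (at least 3.99-fold), and FOXC2 79.3 and 254 (at least 2.54-fold). PAX9, also a factor of sclerotome, was near the floor on both arrays at 109 and 117 (1.07-fold), and ACAN, the cartilage proteoglycan, was at or near it on both. Of muscle genes, MYOD1, MYOG and MYF5, the factors of muscle fate, lay under the floor on both arrays. TNNT3, a fast troponin, read 711 and 188 (3.79-fold). The list of somite, dermomyotome and muscle genes had 22 with a ratio and a median log2 ratio of -0.10, with 12 below 0. TNNT3 was the 1 member (4.55%) at 2-fold on the HH16-titled side, beside 1.93% of all genes. PAX7 and CHRNA1, given above, were the 2 members (9.09%) at 2-fold on the HH19-titled side, beside 1.54%. The part of sclerotome cells in the matrix differences was not tested.

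Vessel, blood and immune markers were dim and ran in different directions. Endothelial markers had a median log2 ratio of -0.15. Of 19, 3 (15.8%) were higher by at least 2-fold on the HH19-titled array, beside 1.54% of all genes. VWF, a clotting factor of endothelium, read 148 and 387 (2.62-fold), while PECAM1, an endothelial adhesion molecule, read 222 and 158 (1.41-fold). Their summed signals were 3368 and 4339. Of 9 erythroid markers, 1 (11.1%) was 2-fold higher on the HH19-titled array, beside 1.54% of all genes. It was HBE, an embryonic globin, at 187 and 375 (2.0-fold). The median of the erythroid markers was -0.44 and the summed signals were 4362 and 5703. Macrophage markers had a median of 0.13 over 12 genes, 2 of them (16.7%) at 2-fold on the HH16-titled side, beside 1.93% of all genes. These were LY86 at 395 and 135 (2.93-fold) and SPI1, the myeloid factor, at 488 and 240.4 (2.03-fold). PTPRC, the common leukocyte antigen, lay under the floor on both arrays. According to the study, the notochord also expresses HNK1 and was removed. Notochord and floor plate markers had a median of -0.47 over 9 genes, 3 of them above 0, and summed signals of 11237 and 13268. SHH, their signal, was dim at 68.9 and 146 (at least 1.46-fold). SPON1, given above, is on that list and was the member at 2-fold on the HH16-titled side. FOXA2 was the member at 2-fold on the HH19-titled side, at 67.4 and 212 (at least 2.12-fold). Each is 11.1% of the 9 genes, beside 1.93% and 1.54% of all genes. Whether notochord or floor plate cells contributed was not tested.

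Genes of growth and housekeeping differed by little, and for some the direction depended on how the arrays were scaled. Of 66 ribosomal protein genes, 64 were lower on the HH16-titled array, with a median log2 ratio of -0.25 and none at 2-fold. Bright genes in general leaned the same way, as seen in the 5 equal classes of genes at or above the floor on both arrays. In the brightest class the median log2 ratio was -0.11, against 0.02 in the dimmest. With quantile normalization, which removes a shift common to genes of one signal level, the ribosomal median was -0.01, with 27 genes above 0 and 35 below. Translation factors behaved alike, with medians of -0.18 as deposited and -0.05 after quantile normalization. The respiratory chain had a median of -0.05, which turned to 0.04 with quantile normalization. Mitotic genes had ratios below 0 in 45 of 54 cases, with a median of -0.14 and none at 2-fold. Of 47 genes of entry into division and DNA replication, only 1 (2.13%) passed 2-fold, on the HH16-titled side and near the 1.93% of all genes. It was CDK6, a kinase of G1, at 2016 and 839.5 (2.4-fold), in the direction opposite to its list. Genes of cell cycle exit split, with SESN1, a sestrin, at 4211 and 1809 (2.33-fold) and CDKN1A, the p21 inhibitor, at 124 and 275 (2.23-fold). Chromatin genes stayed within 2-fold in all 92 cases.

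**Figure D4:**
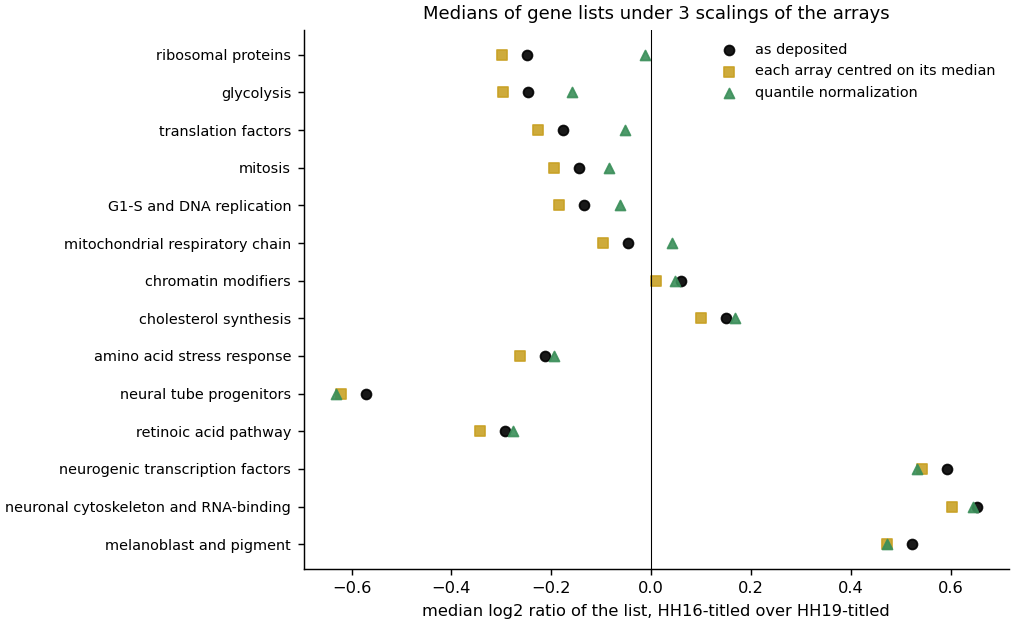
Median log2 ratio (horizontal axis, HH16-titled over HH19-titled) of 14 gene lists with the signals as deposited (black circles), with each array centred on its median (yellow squares) and after quantile normalization (green triangles). The ribosomal protein median moves from -0.25 to -0.01 with quantile normalization, while the medians of neuronal, pigment, neural tube and retinoic acid genes keep their side of 0 under all 3.

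Stress genes were also divided. In the amino acid stress response 4 of 31 genes (12.9%) were 2-fold higher on the HH19-titled array, beside 1.54% of all genes. None was on the HH16-titled array. CHAC1, which breaks down glutathione, read 411 and 2127 (5.18-fold). ASNS, asparagine synthetase, read 926 and 1869 (2.02-fold), and PHGDH, of serine synthesis, 219 and 558 (2.55-fold). ATF3, an early stress factor, read 500.4 and 1120.5 (2.24-fold). Immediate early and heat shock genes went both ways. On the HH16-titled array 5 of 30 (16.7%) were at least 2-fold higher, beside 1.93% of all genes. On the HH19-titled array 2 (6.67%) were, beside 1.54%, and ATF3, given above, was 1 of these 2. JUN, an immediate early factor, read 6936 and 2189.8 (3.17-fold), HSPB9, a small heat shock protein, 4273 and 1469 (2.91-fold), and HSPH1, a large one, 1597 and 691 (2.31-fold). EGR1, which is induced by growth factors and by handling of tissue, read 1018 and 1849 (1.82-fold), and DUSP1 1308 and 679.6 (1.92-fold), in opposite directions. Whether cell isolation contributed was not tested. Cholesterol synthesis genes leaned to the HH16-titled array in 18 of 23 cases, with a median log2 ratio of 0.15.

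HOX genes, which give position along the body axis, were close. None of 10 HOX genes of paralogs 1 to 5 differed by 2-fold. Of 11 of paralogs 6 to 13, 1 (9.09%) was 2-fold higher on the HH16-titled array, beside 1.93% of all genes. That gene was HOXA9, at 2038 and 752 (2.71-fold), and its neighbours HOXA7 and HOXA10 had log2 ratios of 0.64 and 0.08. HOXB1 and HOXB2, anterior members, read 2751 and 4809.9 (1.75-fold) and 989 and 1921 (1.94-fold). Among other developmental factors, TBX2, a T-box repressor, read 912 and 146 (6.24-fold), and FOXD1, a forkhead factor of mesenchyme, 200.3 and 1287 (6.43-fold).

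Of the 370 genes at 2-fold, 213 were in none of the lists. The largest of them was PPP1R17, a phosphatase inhibitor known from cerebellar Purkinje cells, at 4305 and 297 (14.5-fold). MAB21L1, a Mab-21 family gene of eye and neural development, read 725 and 48.4 (at least 7.26-fold). DPP10, a subunit of potassium channels of neurons, read 1507 and 367 (4.11-fold). Several others on this side are known from neurons or their membranes. BCHE, butyrylcholinesterase, read 907 and 284 (3.19-fold), GPM6A, a growth cone membrane protein, 822 and 305 (2.7-fold), and CAMK2A, a calcium-dependent kinase, 449 and 196 (2.29-fold). CALD1, an actin-binding protein, read 2664 and 1000.2 (2.66-fold), and TLE3, a Groucho co-repressor, 531 and 166 (3.2-fold). OGT, the enzyme that adds single sugars to nuclear proteins, was bright at 6159 and 2609 (2.36-fold). Genes on the HH19-titled side were of mixed kinds. SOCS2, an inhibitor of cytokine signalling, read 319 and 1537 (4.82-fold). PRTG, protogenin, a receptor of the early neural tube and mesoderm, was bright at 2705 and 6452 (2.39-fold). TGIF1, a repressor of retinoic acid and transforming growth factor signalling, read 892 and 2743 (3.08-fold). SALL1, a zinc finger factor, read 998 and 2075 (2.08-fold), and HMOX1, heme oxygenase, 62.5 and 261 (at least 2.61-fold). NDP, the WNT receptor ligand norrin, read 99.5 and 374 (at least 3.75-fold).

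Where a gene had several probe sets, they mostly ran the same way. Of the 370 genes, 153 had at least 1 further probe set with a ratio, 263 in all. On the HH16-titled side 149 of 171 further probe sets (87.1%) had the sign of the brightest and 75 were themselves at 2-fold. On the HH19-titled side 69 of 92 (75%) had its sign and 20 were at 2-fold. All probe sets with a ratio reached 2-fold in the same direction for 47 genes, 38 on the HH16-titled side and 9 on the HH19-titled side. The 9 included SNAI1, NKX3-2, ALDH1A2, PTPRZ1, PTN and PRTG. In 2 genes a further probe set passed 2-fold in the other direction. ADGRA2, an adhesion receptor of brain vessels, had a log2 ratio of -1.13 by its brightest probe set and 2.57 by another, and ATCAY, the caytaxin gene, had -1.36 and 1.48. No direction is given for these 2 genes.

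**Figure D5:**
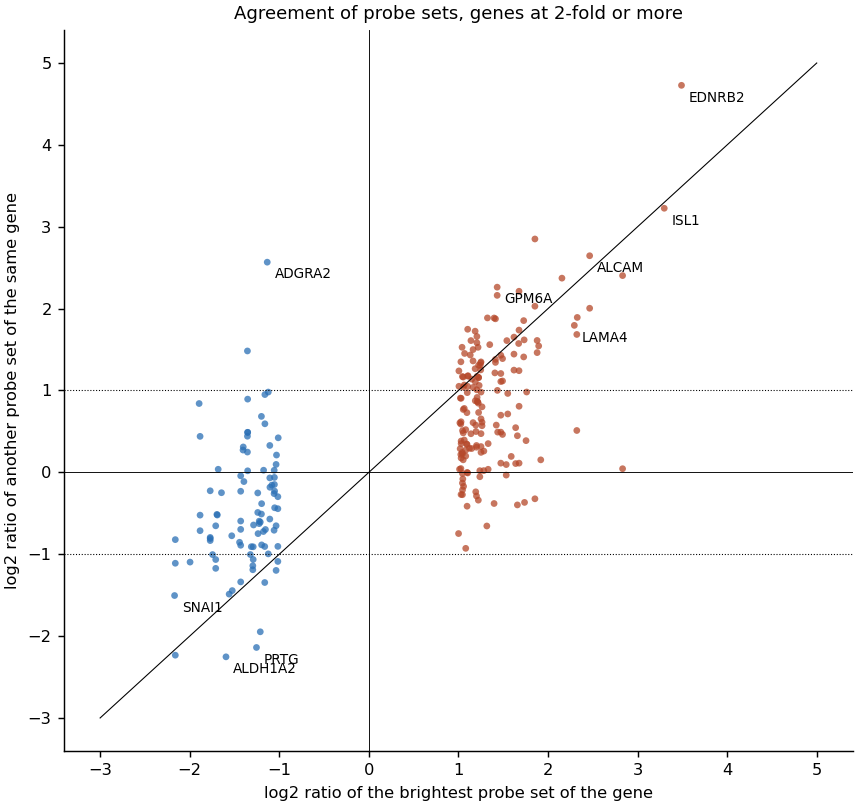
Log2 ratio of each further probe set (vertical axis) against that of the brightest probe set of the same gene (horizontal axis) for the 153 genes at 2-fold with several probe sets, red and blue by the side of the brightest, with the diagonal marking equal ratios. Of the 263 points 218 have the sign of the brightest probe set, and the point above the rest on the left is ADGRA2.

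Set beside the HH9-titled array of cranial crest, most genes on the HH16-titled side lay nearer the dimmer trunk array. Of the 206 genes, 116 had an HH9 signal at or below both trunk arrays and 12 at or above both, and 158 (76.7%) lay nearer the dimmer trunk array on the log2 scale. Of the 164 genes on the HH19-titled side, 53 lay at or below both trunk arrays, 39 at or above both, and 85 (51.8%) nearer the dimmer trunk array. ISL1, CHGA, STMN2 and LAMA4 had HH9 signals of 285, 159, 142 and 77.6. GAL was an exception, with an HH9 signal of 1181 that is close to that of the HH16-titled array. TWIST1, OLFML3 and CLDN1, on the HH19-titled side, had HH9 signals of 1941, 1777 and 2112, above both trunk arrays, whereas PAX6, GDF2 and SP8 had 196, 35.2 and 51.1, below both. Stage, axial level and dissection differ together between the HH9-titled array and the trunk arrays and cannot be told apart.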

How the data were processed

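Per the labels and the methods, an outside company hybridised the arrays to Affymetrix chicken genome arrays for the authors. The authors deposited 1 MAS5 intensity (signal) per probe set and array on a linear scale. The submitters' processing notes name MAS5, and the sources used here give no version of it. The mean signal after trimming 2% at each end was nearly equal on the 3 arrays. No scanner files, detection calls or replicate values were analysed here, so the precision of a signal is unknown.

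Of 38535 probe sets, 96 controls were dropped. Of the other 38439, the platform annotation gave 1 gene symbol for 27168, several for 177 and none for 11094, which makes 13009 named genes. A RefSeq gene table, used for names only, matched 26853 probe sets and changed 0 symbols. Signals under the 40th percentile of all 3 arrays were raised to it, and the log2 ratio of the HH16-titled over the HH19-titled array was taken. A gene was represented by its brightest probe set (highest mean log2 signal over the 3 arrays), and genes under the floor on both trunk arrays got no ratio. For TUBB3, TUBB2A, CHGA, SNAP25 and HAND2, among others, the brightest probe set carries a suffix of sets that may bind more than 1 transcript. No p-value was computed, since each side is 1 array. A 2-fold difference is the threshold used, as in the methods.

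The 62 gene lists, the genes described and the rule for naming them were chosen with earlier results of these data known. The rule took, for each direction, the 40 genes of largest ratio whose brighter signal reached the 60th percentile, up to 6 members of each list at 2-fold and up to 3 well-known members under it, and genes whose probe sets disagreed. Genes under the floor and further genes outside the lists were named after their values were seen. Symbols of some unannotated probe sets were taken from the study's gene table, its values left unused, and some of these probe sets are not reported here.

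The scaling, the floor, the threshold, the probe sets and the way a gene was represented were varied, and the counting was tested on simulated data. Python 3.11.15, numpy 2.4.6, pandas 2.3.3, scipy 1.17.1 and matplotlib 3.10.9 were used.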

Additional observations from a re-analysis of the deposited data

How the results depend on the processing

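No paired analysis was possible because each side is 1 array, and leaving out a replicate was not possible for the same reason. With the floor at the 20th percentile, 527 genes were higher by at least 2-fold on the HH16-titled array and 431 on the HH19-titled array (1932 and 1330 probe sets), with the floor at the 60th 119 and 77 (243 and 131 probe sets), and with no floor 831 and 650 (4033 and 2977 probe sets). All 119 and all 77 were among the 206 and 164 genes of the report. At 3-fold there were 49 and 48 genes (122 and 68 probe sets). With the floor added to both signals the HH16-titled count of genes was 135 and the HH19-titled count of probe sets 203. With the probe set of largest ratio the HH16-titled count of genes was 314. Centring each array on its median gave 178 and 182 genes and quantile normalization 180 and 181, so that the HH16-titled share of the genes at 2-fold was 55.7% as deposited, 49.4% when centred and 49.9% after quantile normalization. The remaining counts stayed within 1.5 times. None of the 206 and 164 genes turned direction at 2-fold, except ADGRA2 and ATCAY with the probe set of largest ratio. With the median over the probe sets of a gene these had log2 ratios of 0.72 and 0.34, opposite to those of their brightest probe sets.

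Signals near the floor carry the least information. Among the genes at 2-fold, 46 on each side have only a lower bound, and with no replicate array the noise of a single probe set cannot be separated from a difference between the cells.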
